A study of Mus musculus with 6 samples.

Results

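Amino acid transporters of the families SLC1, SLC3, SLC6, SLC7, SLC36, SLC38 and SLC43 were described in vascular smooth muscle cells cultured from mouse aorta. The siEzh2 group (3 samples) had received short interfering RNA against Ezh2, the histone methyltransferase of Polycomb repressive complex 2 that places H3K27me3, for 48 hours. The control group (3 samples) was collected with it, and the sources used here do not say what its cells received, nor do they give the strain, sex or age of the mice or whether animals were pooled. Members were all rows whose symbol belongs to one of these families, apart from the cystine importer Slc7a11. This gave 55 of the 27502 genes in the tables, of which 54 encode transporter subunits and 1, Slc7a6os, was matched by its name only. They were grouped by the substrates for which each protein is best known.

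These carriers bring amino acids into the cell, exchange them across the plasma membrane or release them from lysosomes. Several light chains of the SLC7 family reach the surface only when bound by a disulfide bridge to a heavy chain of the SLC3 family, and such pairs trade 1 amino acid for another. In smooth muscle, arginine taken up by cationic carriers feeds the synthesis of polyamines, proline and nitric oxide, and leucine signals to the growth kinase mTORC1. Cells short of amino acids raise many of these genes through the transcription factor ATF4.

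Ezh2 had 1.20, 1.09 and 1.05 FPKM (fragments scaled to gene length and library size) in siEzh2 samples, against 3.41, 3.59 and 3.88 FPKM in control samples (adjusted p = 5.15e-05, limma). Between 16080005 and 18753124 reads per sample could be recovered from the steps of the FPKM values. No source says that the 3 samples of a group are separate cultures, so the p-values describe the spread among these samples, which could be technical. Smooth muscle markers summed to 717 to 754 FPKM in siEzh2 samples and 962 to 986 FPKM in control samples, with 6 of 8 tested markers lower and 1 higher. Most of that sum was Acta2, while the defining markers Myh11 (1.12 and 1.83 FPKM, siEzh2 and control means), Cnn1 (1.04 and 1.14 FPKM) and Tagln (0.228 and 0.253 FPKM) were low. Macrophage and leukocyte markers summed to 14.1 to 15.1 FPKM in siEzh2 samples and 17.2 to 20.5 FPKM in control samples, and their 4 tested markers were split, with Cd68 and Cd14 called higher and Csf1r and Lyz2 lower. Adipocyte markers summed to 21.8 to 23.2 FPKM in siEzh2 samples and 31.0 to 31.5 FPKM in control samples, with 3 of 4 tested markers lower. Endothelial markers summed to 4.60 to 5.28 FPKM in siEzh2 samples, against 3.89 to 4.18 FPKM in control samples, with Kdr higher and Emcn lower of 2 tested. The sum of fibroblast markers, mostly Ly6a, overlapped between the groups, at 350.0 to 365 FPKM in siEzh2 samples and 335 to 357 FPKM in control samples. Of 5 tested fibroblast markers Pdgfra was higher (37.5 FPKM in siEzh2 samples and 28.6 FPKM in control samples, means), and Dpt (10.2 and 24.8 FPKM, siEzh2 and control means) and Lum (1.11 and 2.79 FPKM, likewise) were lower. Ptprc of leukocytes averaged 0.00416 FPKM in siEzh2 samples and 0.00397 FPKM in control samples. What part these markers had in the results was not tested, and in bulk RNA fewer cells of a type cannot be told apart from less RNA per cell.

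The heavy chain Slc3a2, 3 of its light chains (Slc7a5, Slc7a6 and Slc7a8) and the arginine importer Slc7a1 were higher in siEzh2 samples, by 1.17 to 1.46 times. The lysosomal carriers Slc38a7 and Slc36a1, the proline and tryptophan carrier Slc36a4 and the system A carrier Slc38a4 were lower in siEzh2 samples. So were the glutamate transporter Slc1a6, the taurine transporter Slc6a6 and the purine carrier Slc43a3. These 7 were lower by 1.20 to 2.04 times. A group mean of at least 1 FPKM in siEzh2 or control samples was required for the test, and 24 members passed it, all of them in both groups. Of these, 6 were called higher, 7 lower, and 11 did not pass an adjusted p of 0.05 (limma on log2(FPKM + 1), Benjamini-Hochberg adjustment over all 11869 tested genes). That is 25.0% higher and 29.2% lower, against 24.1% and 22.7% of all tested genes, so the number of changed members was near that of genes in general. The groups did not overlap for 16 of the 24 members (66.7%), against 58.1% of all tested genes. The median log2 fold change, siEzh2 minus control, was −0.02 over the members and 0.01 over all tested genes. On this scale, which adds 1 FPKM before the logarithm, changes of low genes are understated. Differences between the substrate classes were not tested. No class held more than 6 tested members, and 24.1% of all tested genes were called higher and 22.7% lower. The counts by class below are therefore descriptions only.

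**Figure D1:**
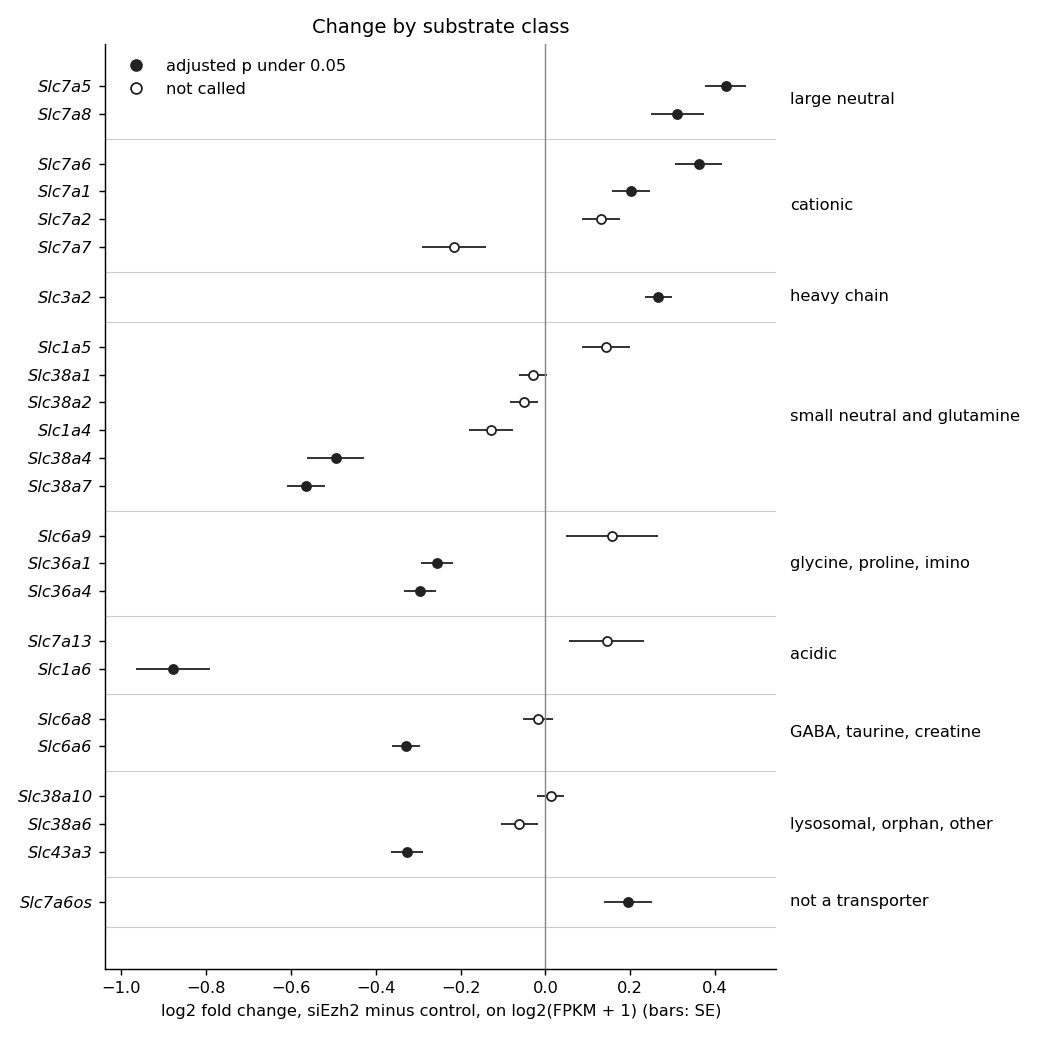
Log2 fold change (siEzh2 minus control, on log2(FPKM + 1), horizontal axis) of the 24 tested members with its standard error, grouped by substrate class. Filled points passed an adjusted p of 0.05: all 5 filled points of the large neutral, cationic and heavy chain classes and that of Slc7a6os lie right of 0, and the 7 filled points left of 0 lie in the other classes.

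Both tested carriers of large neutral amino acids, of 8 in this class, rose, with a median log2 fold change of 0.37. Slc7a5 encodes LAT1, the light chain that imports leucine and other essential amino acids in exchange for glutamine (ENSMUSG00000040010, chromosome 8 from 121881150 to 121907694, minus strand, mm10). It had 16.1, 15.4 and 16.9 FPKM in siEzh2 samples, against 11.5, 11.5 and 12.3 FPKM in control samples. The lowest siEzh2 sample lay above the highest control sample. The means were 16.1 ± 0.725 and 11.8 ± 0.462 FPKM (siEzh2 and control, SD, n = 3 each), a ratio of 1.37 (log2 fold change 0.42, SE 0.0475, adjusted p = 0.000908, limma). Slc7a8 encodes LAT2, the related exchanger that also takes smaller neutral amino acids (ENSMUSG00000022180, chromosome 14 from 54722209 to 54781946, minus strand). It had 1.58, 1.46 and 1.65 FPKM in siEzh2 samples, against 1.05, 0.926 and 1.23 FPKM in control samples. Here too the groups were apart, at a level about 10 times below that of Slc7a5 and on 399 reads over the siEzh2 samples and 297 over the control samples. The ratio of means was 1.46 (log2 fold change 0.31, SE 0.0626, adjusted p = 0.00834, limma).

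The heavy chain Slc3a2 rose too. Slc3a2 encodes 4F2hc (CD98), the partner of LAT1, LAT2, the y+L exchangers and the cystine importer (ENSMUSG00000010095, chromosome 19 from 8706882 to 8723369, minus strand). It had 45.2, 45.7 and 46.2 FPKM in siEzh2 samples, against 37.7, 37.4 and 38.4 FPKM in control samples. Replicates differed by about 1 FPKM while the groups were more than 6 FPKM apart. The ratio of means was 1.21 (log2 fold change 0.27, SE 0.0320, adjusted p = 0.00119, limma). Slc3a1, the heavy chain rBAT of kidney and intestine, had at most 0.0501 FPKM in any sample and was not tested.

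Light chains known to pair with Slc3a2 (Slc7a5, Slc7a6, Slc7a7, Slc7a8, Slc7a10 and, from outside the members, Slc7a11) summed to 35.5, 34.7 and 37.9 FPKM in siEzh2 samples and 25.1, 25.9 and 27.6 FPKM in control samples. This sum was 1.38 times higher in siEzh2 samples. Slc7a11 added 2.67 FPKM to the siEzh2 mean and 0.342 FPKM to the control mean. Relative to Slc3a2, the light chain sum was 0.786, 0.759 and 0.821 in siEzh2 samples, against 0.666, 0.693 and 0.717 in control samples, again without overlap. The lack of overlap in this ratio depended on Slc7a11. With the member light chains alone the ratios of the groups overlap. Slc7a5 made up 44.8% ± 0.459 of the sum in siEzh2 samples and 44.9% ± 0.620 in control samples (SD, n = 3 each), which differed by less than the SD of either group. This too depended on Slc7a11. Of the member light chains alone, the share of Slc7a5 was higher in every siEzh2 sample than in any control sample. These sums are descriptions of FPKM and were not tested.

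**Figure D2:**
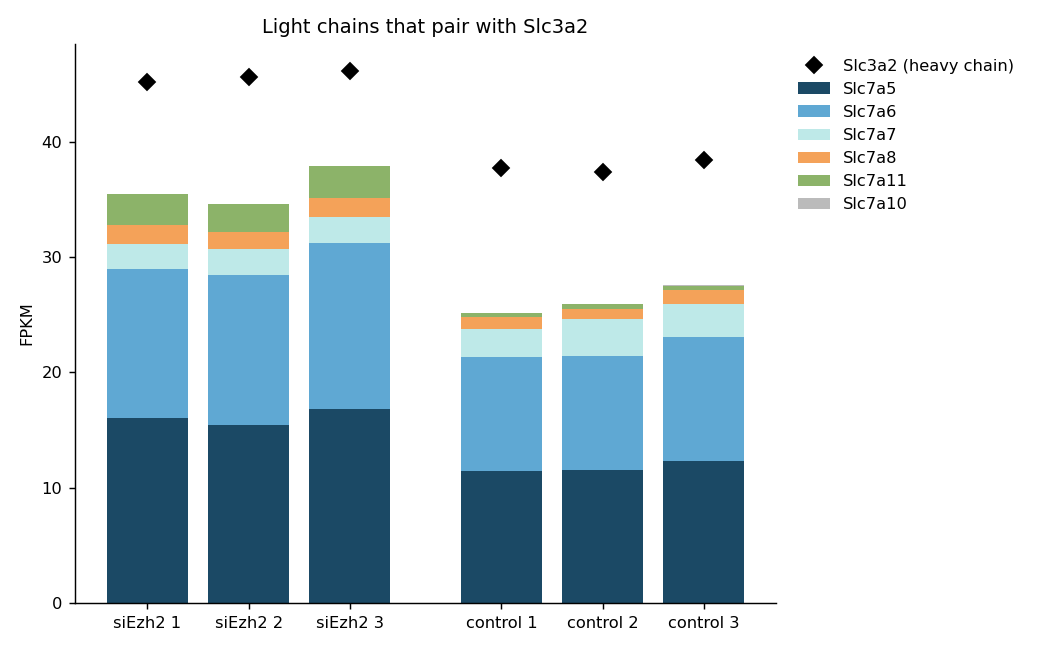
Stacked bars give the FPKM (vertical axis) of 6 light chains in each sample, siEzh2 samples on the left and control samples on the right, and diamonds give Slc3a2. The stacks reach 34.7 to 37.9 FPKM in siEzh2 samples and 25.1 to 27.6 FPKM in control samples, all below the Slc3a2 diamond of the same sample; Slc7a10 is too low to see.

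Among cationic amino acid carriers the arginine carriers Slc7a6 and Slc7a1 rose. Of 5 members 4 were tested, 2 were called higher and 0 lower by limma (Slc7a7 was lower at an unadjusted p of 0.0269, and called lower with quantile normalization), with a median log2 fold change of 0.17. Slc7a6 encodes y+LAT2, which with Slc3a2 exports arginine in exchange for glutamine and sodium (ENSMUSG00000031904, chromosome 8 from 106168857 to 106198706, plus strand). It had 12.9, 13.0 and 14.3 FPKM in siEzh2 samples, against 9.91, 9.93 and 10.8 FPKM in control samples. No siEzh2 sample reached down to the control range, and the ratio of means was 1.31 (log2 fold change 0.36, SE 0.0559, adjusted p = 0.00309, limma). Slc7a1 encodes CAT1, the widespread importer of arginine, lysine and ornithine (ENSMUSG00000041313, chromosome 5 from 148327410 to 148399904, minus strand). It had 8.82, 8.71 and 9.47 FPKM in siEzh2 samples, against 7.60, 7.48 and 7.99 FPKM in control samples. The groups were apart by less than 1 FPKM, with a ratio of means of 1.17 (log2 fold change 0.20, SE 0.0452, adjusted p = 0.0124, limma).

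Slc7a2, the inducible carrier CAT2, averaged 10.3 ± 0.221 FPKM in siEzh2 samples and 9.30 ± 0.474 FPKM in control samples (SD, n = 3 each). Its log2 fold change was 0.13 with an adjusted p of 0.0550 (limma; 0.00652 by limma-voom on recovered reads), and an antisense gene covers 6.95% of its exon bases. Slc7a7, the y+LAT1 light chain of epithelia and macrophages, averaged 2.26 ± 0.0270 FPKM in siEzh2 samples and 2.80 ± 0.387 FPKM in control samples (SD, n = 3 each). Its log2 fold change of −0.22 had an adjusted p of 0.0560 (limma), and the wide spread lay in the control group. The adjusted p was 0.00908 without control sample 1, its lowest control value, and 0.123 without control sample 2 (limma). With all samples and quantile normalization it was 0.0378 (limma), so the call depended on the samples kept and on the normalization. Exons of the antisense gene Oxa1l cover 7.0% of the exon bases of Slc7a7. Slc7a6 and Slc7a6os, the member that is not a transporter, lie on opposite strands with their 3′ ends 2010 bases apart and without shared exon bases. Slc7a6os averaged 5.84 ± 0.101 FPKM in siEzh2 samples and 4.98 ± 0.406 FPKM in control samples (SD over 3 samples each, log2 fold change 0.19, adjusted p = 0.0304, limma). This call was lost without siEzh2 sample 1, 2 or 3 (adjusted p = 0.0771, 0.0616 and 0.0780), and under 3 other alternatives (adjusted p = 0.0554 to 0.0651).

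**Figure D3:**
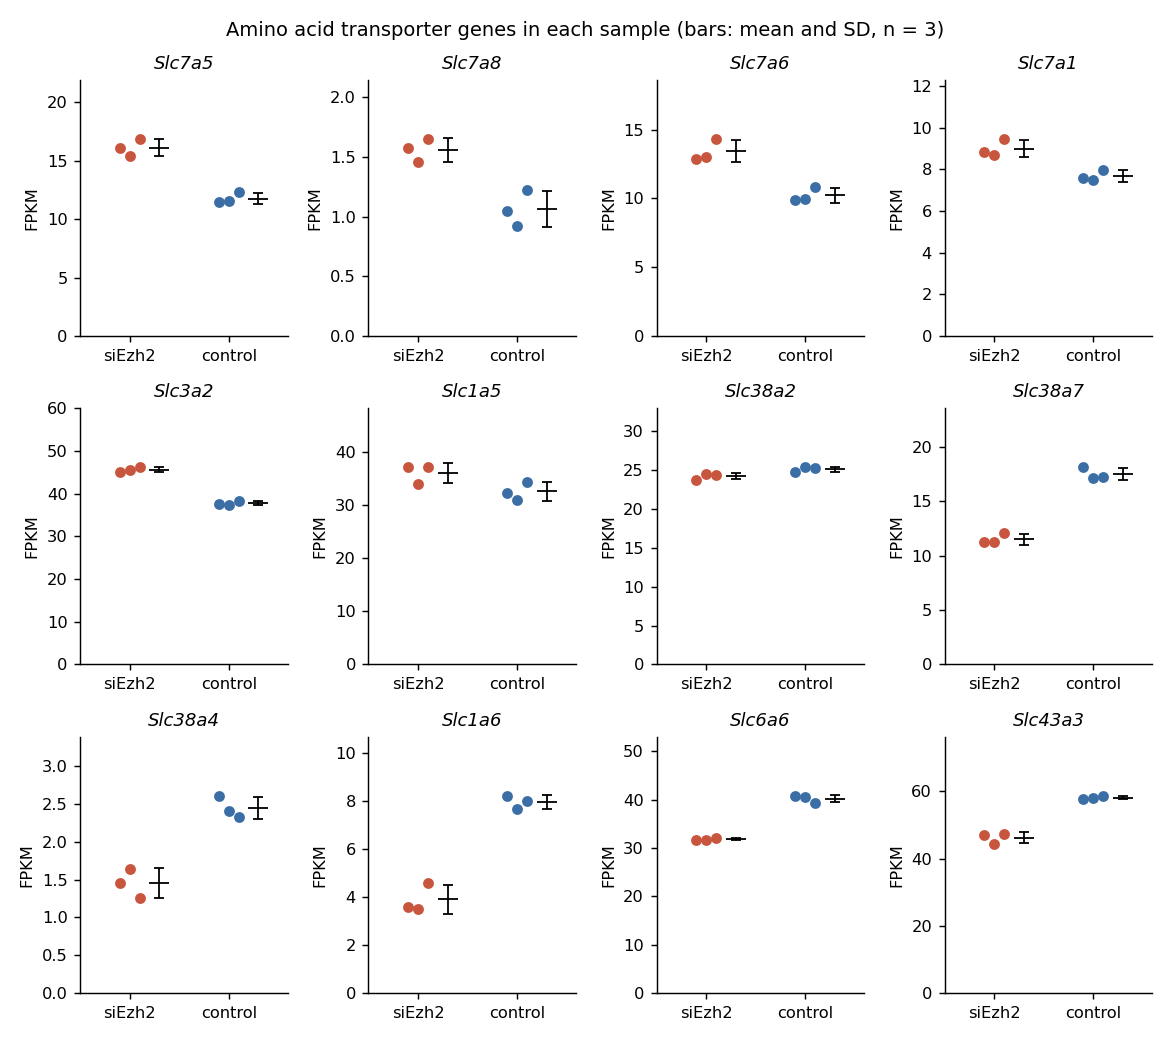
FPKM (vertical axes, from 0) of the 12 members whose values are given for every sample, siEzh2 samples left of control samples, with the mean and SD of 3 samples. In 10 panels the groups are apart with a call, in the Slc1a5 panel they overlap, and in the Slc38a2 panel they are apart by less than 1 FPKM with no call.

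Among carriers of small neutral amino acids and glutamine, Slc38a7 and Slc38a4 fell. Of 9 members 6 were tested, 2 were called lower and 0 higher by limma, and the median log2 fold change was −0.09. That is 33.3% lower of only 6, against 22.7% of all tested genes. Slc1a5 had a positive fold change at an unadjusted p of 0.0431 (limma), and was called higher by limma-voom. Slc1a5 encodes ASCT2, a sodium-dependent exchanger that brings in glutamine (ENSMUSG00000001918, chromosome 7 from 16781340 to 16798274, plus strand). It had 37.1, 34.0 and 37.1 FPKM in siEzh2 samples, against 32.4, 31.0 and 34.4 FPKM in control samples. The lowest siEzh2 sample lay within the control range, and the log2 fold change of 0.14 (SE 0.0562) had an adjusted p of 0.0813 (limma). Slc38a2 encodes SNAT2, the system A carrier that rises on amino acid shortage (ENSMUSG00000022462, chromosome 15 from 96687392 to 96699730, minus strand). It had 23.7, 24.5 and 24.4 FPKM in siEzh2 samples, against 24.7, 25.4 and 25.2 FPKM in control samples. The groups lay side by side without overlap, and the log2 fold change of −0.05 (SE 0.0330) had an adjusted p of 0.262 (limma). Slc1a4, the carrier ASCT1 of alanine, serine and cysteine, averaged 9.06 ± 0.511 FPKM in siEzh2 samples and 9.99 ± 0.418 FPKM in control samples (SD, n = 3 each, adjusted p = 0.0839, limma), and passed without siEzh2 sample 3 (adjusted p = 0.0390). Slc38a1, the system A carrier SNAT1, averaged 1.43 ± 0.0245 FPKM in siEzh2 samples and 1.48 ± 0.0489 FPKM in control samples (SD, n = 3 each, adjusted p = 0.501, limma).

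The 2 members of this class that fell were Slc38a7 and Slc38a4. Slc38a7 encodes SNAT7, which exports glutamine and asparagine from lysosomes (ENSMUSG00000036534, chromosome 8 from 95835920 to 95853539, minus strand). It had 11.2, 11.2 and 12.1 FPKM in siEzh2 samples, against 18.1, 17.1 and 17.3 FPKM in control samples. The gap between the groups, about 5 FPKM, was several times the spread within either group. Its mean was 1.52 times lower in siEzh2 samples (log2 fold change −0.56, SE 0.0439, adjusted p = 0.000245, limma). Slc38a4 encodes SNAT4, a system A carrier of liver and placenta that is imprinted in mouse and expressed from the paternal allele (ENSMUSG00000022464, chromosome 15 from 96994820 to 97055956, minus strand). It had 1.46, 1.64 and 1.25 FPKM in siEzh2 samples, against 2.61, 2.41 and 2.33 FPKM in control samples. These low values rest on 316 reads over the siEzh2 samples and 580 over the control samples, and no siEzh2 sample reached the control range. Its mean was 1.69 times lower in siEzh2 samples (log2 fold change −0.49, SE 0.0669, adjusted p = 0.00183, limma). Slc38a1, Slc38a2 and Slc38a4 follow one another on chromosome 15, with gaps of 44.5 and 295 kb, and Slc38a4 was the called one of the 3.

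Carriers of glycine, proline and imino acids had 2 members that fell, Slc36a1 and Slc36a4, among 3 tested of 8, with a median log2 fold change of −0.26. That is 66.7% lower of only 3, against 22.7% of all tested genes. Slc36a1 encodes PAT1, a proton-coupled carrier that releases proline, glycine and alanine from lysosomes (ENSMUSG00000020261, chromosome 11 from 55204350 to 55236330, plus strand). It averaged 18.8 ± 0.572 FPKM in siEzh2 samples and 22.6 ± 0.357 FPKM in control samples (SD over 3 samples each, log2 fold change −0.26, adjusted p = 0.00235, limma). Slc36a4 encodes PAT4, a relative with high affinity for proline and tryptophan (ENSMUSG00000043885, chromosome 9 from 15709738 to 15743361, plus strand). It averaged 5.46 ± 0.115 FPKM in siEzh2 samples and 6.94 ± 0.229 FPKM in control samples (SD over 3 samples each, log2 fold change −0.30, adjusted p = 0.00143, limma). For both genes every siEzh2 sample lay below every control sample. Slc6a9, the glycine transporter GlyT1, averaged 1.34 ± 0.268 FPKM in siEzh2 samples and 1.10 ± 0.217 FPKM in control samples (SD, n = 3 each, adjusted p = 0.279, limma), with 30.2% of its exon bases shared with antisense genes. As a sum, Slc36a1, Slc36a4 and Slc38a7 had 35.0 to 36.8 FPKM in siEzh2 samples and 46.6 to 47.5 FPKM in control samples, a sum chosen after their values were seen. Slc38a9, the lysosomal arginine sensor of mTORC1, did not share this difference, with 0.848 ± 0.0562 FPKM in siEzh2 samples and 0.833 ± 0.0453 FPKM in control samples (n = 3 each, SD), too low for the test.

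Among the acidic amino acid carriers 2 of 6 were tested and 1 fell. Slc1a6 encodes EAAT4, a glutamate transporter best known from Purkinje cells of the cerebellum (ENSMUSG00000005357, chromosome 10 from 78780496 to 78814765, plus strand). It had 3.58, 3.52 and 4.59 FPKM in siEzh2 samples, against 8.22, 7.67 and 7.98 FPKM in control samples. The highest siEzh2 sample was still more than 3 FPKM below the lowest control sample, on 429 reads over the siEzh2 samples and 952 over the control samples. Its mean was 2.04 times lower in siEzh2 samples (log2 fold change −0.88, SE 0.0872, adjusted p = 0.000604, limma), and this was the largest log2 fold change of any tested member. Markers of neurons and glia summed to 0.331 to 0.450 FPKM in siEzh2 samples and 0.383 to 0.588 FPKM in control samples, none of the 6 reached 1 FPKM in any sample, and Rbfox3 and Aqp4 were listed at 0 in all siEzh2 samples. Slc7a13, a light chain that carries aspartate and glutamate in kidney, averaged 1.81 ± 0.296 FPKM in siEzh2 samples and 1.54 ± 0.179 FPKM in control samples (SD, n = 3 each, adjusted p = 0.225, limma). Slc1a2 and Slc1a3, the main glutamate transporters of astrocytes, averaged 0.378 and 0.176 FPKM in siEzh2 samples, against 0.217 and 0.208 FPKM in control samples, and were not tested.

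Carriers of osmolytes and related compounds had 2 tested members of 5. Slc6a6 encodes the taurine transporter (ENSMUSG00000030096, chromosome 6 from 91684053 to 91759066, plus strand). It had 31.7, 31.7 and 32.1 FPKM in siEzh2 samples, against 40.8, 40.5 and 39.4 FPKM in control samples. The siEzh2 samples were within 1 FPKM of one another and all lower than the control samples, with a mean 1.26 times lower (log2 fold change −0.33, SE 0.0326, adjusted p = 0.000603, limma). Slc6a8, the creatine transporter, was the most abundant member by FPKM and averaged 63.4 ± 0.559 FPKM in siEzh2 samples and 64.2 ± 1.71 FPKM in control samples (SD, n = 3 each), less than 1 control SD apart (adjusted p = 0.717, limma). Slc6a12, the betaine and GABA transporter, had 0.826 ± 0.164 FPKM in siEzh2 samples and 0.378 ± 0.108 FPKM in control samples (SD, n = 3 each), too low to be tested.

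Of the members with an unsettled or different substrate 3 of 8 were tested and 1 fell. Slc43a3 encodes a carrier of purine nucleobases that belongs to a family of amino acid transporters by sequence (ENSMUSG00000027074, chromosome 2 from 84936579 to 84958509, plus strand). It had 47.0, 44.4 and 47.2 FPKM in siEzh2 samples, against 57.8, 58.0 and 58.7 FPKM in control samples. The highest siEzh2 sample lay more than 10 FPKM below the lowest control sample, with a mean 1.26 times lower in siEzh2 samples (log2 fold change −0.33, SE 0.0376, adjusted p = 0.00101, limma). Its neighbour Slc43a1, a carrier of large neutral amino acids 73.0 kb away, had 0.297 ± 0.0912 FPKM in siEzh2 samples and 0.333 ± 0.0543 FPKM in control samples (SD, n = 3 each). Slc38a10 averaged 42.8 ± 0.432 FPKM in siEzh2 samples and 42.5 ± 0.638 FPKM in control samples (SD, n = 3 each, adjusted p = 0.768, limma). Slc38a6 averaged 2.53 ± 0.123 FPKM in siEzh2 samples and 2.68 ± 0.118 FPKM in control samples (SD, n = 3 each, adjusted p = 0.289, limma).

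Levels among members spanned a wide range, and 7 of them exceeded 20 FPKM in the means of both groups (Slc6a8, Slc43a3, Slc3a2, Slc38a10, Slc6a6, Slc1a5 and Slc38a2). In siEzh2 samples Slc3a2 (45.7 FPKM) and Slc43a3 (46.2 FPKM) differed by less than the SD of Slc43a3 (1.56), whereas in control samples Slc43a3 (58.2 FPKM) stood 20 FPKM above Slc3a2 (37.8 FPKM). Summed by class, carriers of large neutral amino acids had 18.8 to 20.1 FPKM in siEzh2 samples and 13.8 to 15.0 FPKM in control samples. Cationic carriers had 34.3 to 36.8 FPKM in siEzh2 samples and 29.9 to 30.6 FPKM in control samples. The sums of 5 further classes were lower in siEzh2 samples, also without overlap. Acidic carriers had 5.58 to 7.33 FPKM in siEzh2 samples and 9.80 to 10.2 FPKM in control samples, and carriers of glycine, proline and imino acids had 25.1 to 26.6 FPKM in siEzh2 samples and 30.5 to 31.2 FPKM in control samples. Small neutral carriers had 81.5 to 86.0 FPKM in siEzh2 samples and 87.0 to 90.9 FPKM in control samples. Carriers of taurine, creatine and related compounds had 95.7 to 97.0 FPKM in siEzh2 samples and 103.6 to 106 FPKM in control samples, and those of unsettled or other substrate had 91.1 to 94.1 FPKM in siEzh2 samples and 103.7 to 105 FPKM in control samples. The sum over all 55 members was 404 to 420.2 FPKM in siEzh2 samples and 425 to 432 FPKM in control samples. Sums are carried by the most abundant genes and were not tested.

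**Figure D4:**
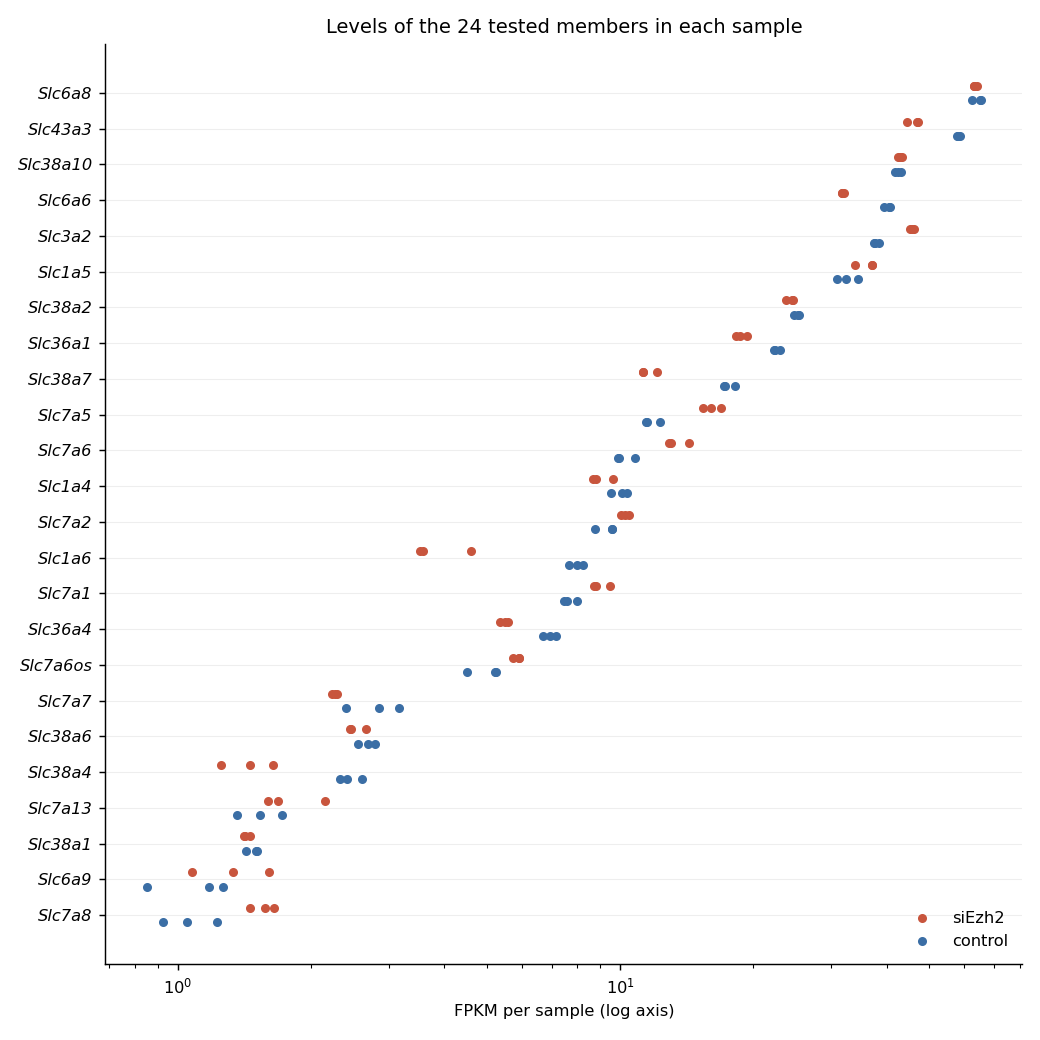
FPKM of each sample (horizontal log axis) for the 24 tested members, ordered by their control mean, siEzh2 samples above control samples in each line. Levels run from about 1 FPKM for Slc7a8 to about 64 FPKM for Slc6a8, and the widest gap between the groups is that of Slc1a6.

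The 31 members under the filter had group means of at most 0.848 FPKM. Of these, 12 reached a mean of 0.1 FPKM in at least 1 group. Apart from those given above, they were Slc6a15 and Slc6a17 of neuronal neutral amino acid transport, Slc43a2 (LAT4), Slc7a3 (the cationic carrier CAT3), Slc7a4 (an orphan of the cationic group), Slc6a7 (a proline transporter of brain) and Slc6a13 (GAT2). Slc6a15 averaged 0.581 ± 0.0159 FPKM in siEzh2 samples and 0.241 ± 0.0928 FPKM in control samples (SD, n = 3 each), on 230 and 104 reads. Fitted with no filter, over 27502 genes, 2 of the 31 were called higher, Slc6a15 (adjusted p = 0.0108, limma) and Slc6a12 (adjusted p = 0.0290, limma), and 0 lower. In the same fit 2766 of the 27502 genes were called higher and 2383 lower, so calls were no more frequent among these members than among genes in general. The remaining 19 members stayed below 0.1 FPKM in both group means and at or below 0.180 FPKM in every sample. Among them were the monoamine transporters Slc6a2, Slc6a3 and Slc6a4, the neuronal glutamate transporter Slc1a1 and the kidney and gut carriers Slc6a19, Slc6a20a and Slc6a20b. None of the 19 was called with no filter. The groups did not overlap for Slc6a4 (10 reads over the siEzh2 samples and 2 over the control samples) and Slc1a7 (8 and 1 reads, likewise). At this depth such counts cannot settle a difference.

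The core of the C/EBP-ATF response element, TGATGNAA, through which ATF4 acts, was searched on both strands in RefSeq promoters (build GRCm38.p6, from 250 bases before to 50 after each start). The table held 39 of the 55 members, and 2 of them (5.13%) carried the motif, against 4.51% of all 27025 genes in the table. These were Slc1a4 and Slc7a7, 2 of the 16 tested members with a promoter (12.5%), neither of them called. The sequences show the motif in capitals, 5′ to 3′ on the strand that carries it. The first lies at the start of Slc1a4, chr11:20332699-20332728 (plus strand). The distal motif of Slc7a7, chr14:54418067-54418096 (minus strand), begins at position −141 from an annotated start. The proximal one, chr14:54417927-54417956 (minus strand), begins at position −1 from an annotated start, which it spans, and at −243 from another.
Slc1a4: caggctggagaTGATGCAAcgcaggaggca
Slc7a7, distal: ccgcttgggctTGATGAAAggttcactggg
Slc7a7, proximal: gacctagaagcTGATGCAAcagcttccccg
No match was found in the windows of the 5 members called higher (Slc3a2, Slc7a1, Slc7a6, Slc7a6os and Slc7a8) or of the 5 called lower that the table held. This says only that these letters are not in those windows. No promoter was available for Slc7a5, which was called higher, or for Slc6a6 and Slc43a3, which were called lower.

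Genes of the amino acid response moved in both directions. Of 16 tested genes on this list 6 were higher and 4 lower, with a median log2 fold change of −0.01. These are 37.5% and 25.0%, against 24.1% and 22.7% of all tested genes. Atf4 averaged 58.9 ± 1.82 FPKM in siEzh2 samples and 52.2 ± 2.19 FPKM in control samples (SD over 3 samples each, log2 fold change 0.17, adjusted p = 0.0226, limma). It no longer passed without control sample 2 or 3 (adjusted p = 0.0625 and 0.0682) or siEzh2 sample 1 or 2 (0.0520 and 0.0698). Trib3, a pseudokinase induced by ATF4, had 4.15 ± 0.154 FPKM in siEzh2 samples and 2.10 ± 0.262 FPKM in control samples (SD, n = 3 each, adjusted p = 0.000457, limma). Ppp1r15a, which directs the phosphatase of eIF2α, rose by a log2 fold change of 0.37, and Nupr1, a stress-induced nuclear protein, fell to 17.6 ± 1.14 FPKM in siEzh2 samples, against 29.9 ± 2.18 FPKM in control samples (SD, n = 3 each). Asns, asparagine synthetase and a common readout of ATF4, had 17.0 ± 0.806 FPKM in siEzh2 samples and 16.3 ± 0.181 FPKM in control samples (SD, n = 3 each, adjusted p = 0.327, limma).

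Cytosolic aminoacyl-tRNA synthetases and their scaffold genes, which use amino acids for translation, had 12 higher and 1 lower gene of 23 tested, or 52.2% higher against 24.1% of all tested genes. The changes were small, with a median log2 fold change of 0.12. Cars (cysteinyl) had 15.6 ± 0.630 FPKM in siEzh2 samples and 12.02 ± 0.429 FPKM in control samples (SD, n = 3 each, adjusted p = 0.0015, limma). Aars (alanyl) rose by a log2 fold change of 0.21 and the scaffold gene Eef1e1 by 0.32. Serine, glycine and one-carbon genes had 4 higher and 1 lower of 11, at a median of 0.10. Their shares were 36.4% and 9.09%, against 24.1% and 22.7% of all tested genes. Mthfd1l and Shmt2 of mitochondrial folate metabolism were higher by 0.31 and 0.30, and Aldh1l1 of cytosolic folate metabolism was lower by a log2 fold change of −0.48. Of 6 tested genes of asparagine, aspartate and alanine metabolism 1 was called, Gpt, which was lower, at an adjusted p of 0.0244 (limma). That is 16.7% lower, against 22.7% of all tested genes. Gpt, at 0.751 ± 0.111 FPKM in siEzh2 samples and 1.04 ± 0.10 FPKM in control samples (SD, n = 3 each), passed the filter through the control group only. It no longer passed without control sample 1 (adjusted p = 0.0518) and without siEzh2 sample 1 or 2 (0.0711 and 0.0739), nor under 4 other alternatives (0.0563 to 0.0715). Got1, an aspartate aminotransferase, was not called (adjusted p = 0.475).

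All 6 tested genes of glutamine and glutamate metabolism were called, 4 higher and 2 lower, with a median log2 fold change of 0.19. That is 66.7% higher and 33.3% lower, against 24.1% and 22.7% of all tested genes, in a list of only 6. Gfpt2, which spends glutamine on hexosamine synthesis, had 33.3 ± 1.04 FPKM in siEzh2 samples and 21.2 ± 0.459 FPKM in control samples (SD, n = 3 each, adjusted p = 0.000118, limma). Ppat, the first enzyme of purine synthesis, rose by 0.54 on the log2 scale, and Glud1, glutamate dehydrogenase, fell to 69.8 ± 0.559 FPKM in siEzh2 samples, against 94.5 ± 2.10 FPKM in control samples (SD, n = 3 each). Proline, arginine and polyamine genes had 5 higher and 2 lower of 13 tested, at a median of 0.03. These are 38.5% and 15.4%, against 24.1% and 22.7% of all tested genes. The smallest p-values in that list were those of polyamine genes, Amd1 (log2 fold change 0.50), Sat1 (0.40) and Sms (0.45). The arginases Arg1 and Arg2 and the nitric oxide synthases Nos2 and Nos3 averaged at most 0.151 FPKM in either group, too low for the test. A link between the arginine carriers and these genes was not tested. Amd1 has a near-identical copy in mouse, Amd2, with which reads could have been shared. Branched-chain genes had 3 higher and 4 lower of 8, at a median of −0.10. Dbt, a subunit of the branched-chain ketoacid dehydrogenase, was higher by 0.72, Bcat1, the cytosolic aminotransferase, was higher by 0.21, and Ppm1k, the phosphatase that activates the dehydrogenase, was lower (log2 fold change −0.48). Ppm1k passed the filter through the control group only.

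Of 29 tested genes of amino acid sensing by mTORC1, 4 were higher and 10 lower (13.8% and 34.5%, against 24.1% and 22.7% of all tested genes), with a median log2 fold change of −0.05. Castor1, the cytosolic arginine sensor, had 18.9 ± 0.653 FPKM in siEzh2 samples and 27.2 ± 1.48 FPKM in control samples (SD, n = 3 each, adjusted p = 0.000659, limma). Sesn3, of the leucine-sensing sestrin family, fell by 0.36 on the log2 scale, and Fnip2, a partner of folliculin, rose by 0.58. Among 16 tested other transporters of amino acids and peptides 4 were higher and 3 lower (25.0% and 18.8%), at a median of −0.00041. Slc7a11 had 2.67 ± 0.184 FPKM in siEzh2 samples and 0.342 ± 0.0287 FPKM in control samples (SD, n = 3 each, adjusted p = 3.57e-05, limma). Slc16a10, a carrier of aromatic amino acids, had 1.88 ± 0.0901 FPKM in siEzh2 samples and 0.973 ± 0.106 FPKM in control samples (SD, n = 3 each, adjusted p = 0.000488, limma). Slc7a11 and Slc16a10 passed the filter through the siEzh2 group only. Mfsd12, which moves cysteine into lysosomes and melanosomes, fell by 0.64 on the log2 scale.

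**Figure D5:**
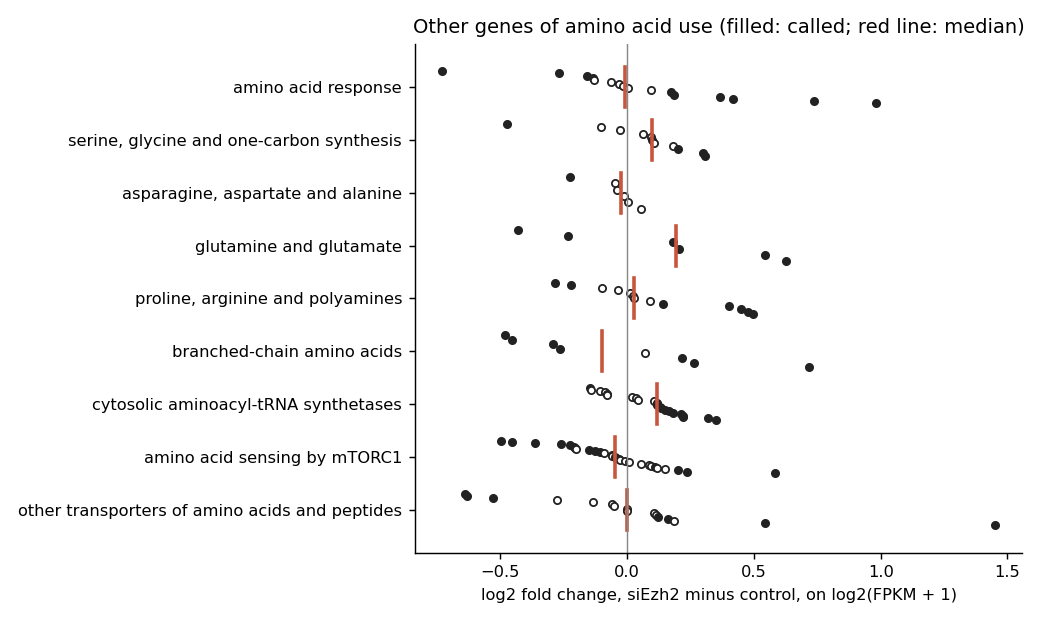
Log2 fold changes (siEzh2 minus control, on log2(FPKM + 1), horizontal axis) of tested genes in 9 lists outside the members, 1 point per gene, filled where the adjusted p was under 0.05, with the median of each list as a red line. The tRNA synthetase list has most of its filled points right of 0 (12 of 13), and the mTORC1 list most of them left of 0 (10 of 14).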

How the data were processed

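RNA sequencing of 6 samples, 3 siEzh2 and 3 control, was made from poly(A) RNA with a stranded kit, per the labels' protocols. The authors deposited 1 table of FPKM values per sample, with Trimmomatic, HISAT2, HTSeq and Cufflinks and the build mm10 named in the submitters' processing notes, without versions. The sources used here give neither their order nor the strand setting of the counting. Samples were grouped by their labels.

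From the FPKM values, genes with a group mean of at least 1 FPKM were fitted on log2(FPKM + 1) with limma 3.58.1 (R 4.3.3), siEzh2 minus control, without covariates, and p-values were adjusted by Benjamini-Hochberg over all 11869 genes. A gene was called at an adjusted p under 0.05. The limma fit was tested on simulated data with known changes. That simulation had far fewer changed genes than were called here and the same spread setting for all genes. It therefore checks the code, not the calls in these data. Whole reads were recovered from the FPKM steps and exon lengths of GENCODE M21, which held 99.8% of the gene IDs; in each sample 98.4% to 98.5% of values under 1000 reads came out whole within 0.02. Depth limits the precision of low genes, and read counts cover counting error only. Locations are from the same annotation. Promoters are from RefSeq, build GRCm38.p6. Alternatives were quantile normalization, no filter, a pseudocount of 0.1, a replicate block, limma with trend and robust estimation, limma-voom on recovered reads, a minimum log2 fold change of 0.5, and leaving out each sample.

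Values in every sample are given for called members with an absolute log2 fold change of at least 0.3 and for Slc3a2, Slc7a5, Slc1a5, Slc38a2 and Slc7a1. Other tested members are given by means, and untested ones with a group mean of 0.1 FPKM or more are named. From each gene list outside the members the 3 genes with the smallest p are given, with Atf4, Asns, Arg1, Arg2, Nos2 and Nos3. The members, gene lists and tests were chosen with earlier results of these data known.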

Additional observations from a re-analysis of the deposited data

How the results depend on the processing

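Of the 13 called members, 12 kept their call under all 12 alternatives tried for single genes, and 14 of 288 combinations of tested member and alternative changed a call, with 0 reversed. Members called higher numbered 5 to 8 and members called lower 7 to 8 under these alternatives, beside 6 and 7 as reported. A minimum absolute log2 fold change of 0.5 left 0 higher and 2 lower members (Slc38a7 and Slc1a6): by class it left 0 large neutral, cationic and heavy chain members and 0 for Slc7a6os among those higher, and 0 glycine and proline, taurine and creatine, and orphan members and 1 small neutral member among those lower. With no filter 1 carrier of GABA, taurine and related compounds, Slc6a12, was higher. The cationic carriers called lower numbered 1 with quantile normalization (Slc7a7, adjusted p = 0.0378) and 0 to 1 when a sample was left out. Slc7a6os was lost (0 called) with quantile normalization, no filter and the replicate block, and was called in 0 to 1 when a sample was left out. Small neutral carriers called higher numbered 1, Slc1a5, with the replicate block, with trend and robust estimation and with limma-voom (adjusted p = 0.04999, 0.0447 and 0.00386). The causes were not tested.

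Same-numbered samples had correlations of their deviations of 0.0243, 0.0695 and 0.0405, although every sample correlated best with its own number, so the numbers were not taken as pairing; with the replicate block, beside the 2 changes above, no other member's call changed. With a pseudocount of 0.1 the log2 fold changes of the low genes Slc7a8 and Slc38a4 were 0.52 and −0.72, and with limma-voom 0.55 and −0.76.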
